A study of Mus musculus with 4 samples.

Results

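Mast cell genes were followed in lymphocyte preparations of the inflamed gut: the chymases Mcpt1, Mcpt2, Mcpt4 and Cma1, the tryptases Tpsb2 and Tpsab1, carboxypeptidase A3 (Cpa3), the IgE receptor chains Fcer1a and Ms4a2, and Kit, the receptor for stem cell factor. The 10 genes were taken by symbol, and a probe belonged to a gene when its RefSeq accession did. This gave 10 probes for 9 of the 10 genes, out of 27234 named probes for 20659 genes. Tpsb2 had 2 probes, each other gene had 1, and Tpsab1, annotated by RefSeq as a transcribed pseudogene in this strain, had none. The cells were lamina propria lymphocytes, isolated from the tissue under the gut epithelium of C57BL6 mice on day 10. All 4 groups had received dextran sulfate sodium (DSS), which injures the colon lining: wild type on DSS, wild type on DSS and leukemia inhibitory factor (LIF, a cytokine related to interleukin-6), Stat4-/- on DSS, and Stat4-/- on DSS plus LIF. Stat4 encodes a transcription factor activated by interleukin-12. Each group had 1 array from 5 mice. The sources used here do not give whether their RNA was pooled, which part of Stat4 was deleted, or the age of the mice.

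Mast cells are resident granulated cells that mature in tissues under KIT signalling. Their granules hold neutral proteases bound to heparin-like proteoglycans, and IgE bound to the high-affinity receptor triggers their release. Mouse mast cells of mucosal surfaces are known for Mcpt1 and Mcpt2, and those of connective tissue, such as the submucosa, for Mcpt4, Cma1, Tpsb2 and Cpa3. FcεRI is built from the IgE-binding alpha chain (Fcer1a), the signal-amplifying beta chain (Ms4a2) and a gamma chain (Fcer1g) shared with other Fc receptors. Basophils carry this receptor too, and interstitial cells of Cajal, progenitor cells and some innate lymphoid cells carry KIT.

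Levels are log2 values of the processed signal minus the 75th percentile of that array, and they compare arrays within a probe, never a probe with another. That percentile ranged from 23.8 (wild type on DSS plus LIF) to 122.9 (wild type on DSS), and probes well above background numbered 14823 to 24339 of 39429. The array of wild type on DSS plus LIF correlated at 0.800 to 0.818 with the others over 12674 probes, which are not replicates, while the other 3 correlated at 0.951 to 0.980. The probe of Stat4 read −0.49 and 0.21 in wild type and 0.31 and −0.48 in the knockout without and with LIF, and its order was not that of the genotypes. It is not known here to cover the deleted part, and the knockout arrays are called labelled knockout below. The T cell genes Cd3e, Cd3g and Cd2 and the B cell gene Ms4a1 were well above background on all 4 arrays, but so were the neutrophil genes S100a8 and S100a9 and the epithelial gene Epcam.

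The stretches before the start sites of the proteases that were measured in both genotypes under DSS are shown for the GATA and E-box motifs they hold, because GATA factors and MITF are known regulators of mast cell genes. They are RefSeq sequences of GRCm38.p6, read 5′ to 3′ on the gene's strand and ending before the annotated gene. Capitals mark the GATA motif AGATAA, the GATA motif TGATAA or the E-box motif CACATG, on either strand.
Mcpt1 (chr14:56017844-56017963, plus strand): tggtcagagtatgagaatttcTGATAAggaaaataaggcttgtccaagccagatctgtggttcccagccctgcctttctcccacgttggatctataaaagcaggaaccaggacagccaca
Mcpt4 (chr14:56062311-56062430, minus strand): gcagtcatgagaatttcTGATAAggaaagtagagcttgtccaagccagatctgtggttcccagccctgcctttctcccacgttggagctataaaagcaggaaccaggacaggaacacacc
Cma1 (chr14:55944676-55944795, minus strand): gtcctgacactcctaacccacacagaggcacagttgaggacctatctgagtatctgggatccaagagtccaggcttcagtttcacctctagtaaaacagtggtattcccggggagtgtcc
Cpa3 (chr3:20242210-20242301, minus strand): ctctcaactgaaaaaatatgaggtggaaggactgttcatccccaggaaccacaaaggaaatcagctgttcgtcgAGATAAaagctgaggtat

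The Mcpt1 and Mcpt4 stretches share 53 bases without a difference, which begin 83 bases before the start of Mcpt1 and 87 before that of Mcpt4. TGATAA begins 99 bases before the start of Mcpt1 and 103 before that of Mcpt4, and AGATAA 46 bases before the start that the promoter table gives for Cpa3. The 28 bases next to that start lie inside the annotated Cpa3 gene and are not printed. No letters were marked for Cma1. Promoters were matched for 7 of the 10 genes (Mcpt2, Tpsb2 and Tpsab1 were not), and in the 250 bases before the start at least 1 of the GATA motifs occurred on either strand in 5 of these 7 genes. At least 1 of them occurred in 16.6% of all 32851 promoters of that length, AGATAA in 9.99%, TGATAA in 7.94% and CACATG in 12.3%. Promoters that hold both GATA motifs are counted for each. Among the members CACATG was found before Fcer1a only. These matches are letters in a window and show no binding.

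All 10 probes were well above background on the array of wild type on DSS, 5 on that of wild type on DSS plus LIF and 6 on each labelled knockout array. By genes this was 9, 5, 6 and 6 of 9. No spot of a non-control probe was saturated. Over all probes 61.7%, 37.6%, 44.9% and 45.7% passed on the 4 arrays in the same order. Processed signals in wild type on DSS ran from 16.6 ± 2.54 (error given by the scanner software, 1 spot) for Ms4a2 to 299.5 ± 30.0 for the brighter Tpsb2 probe.

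**Figure D1:**
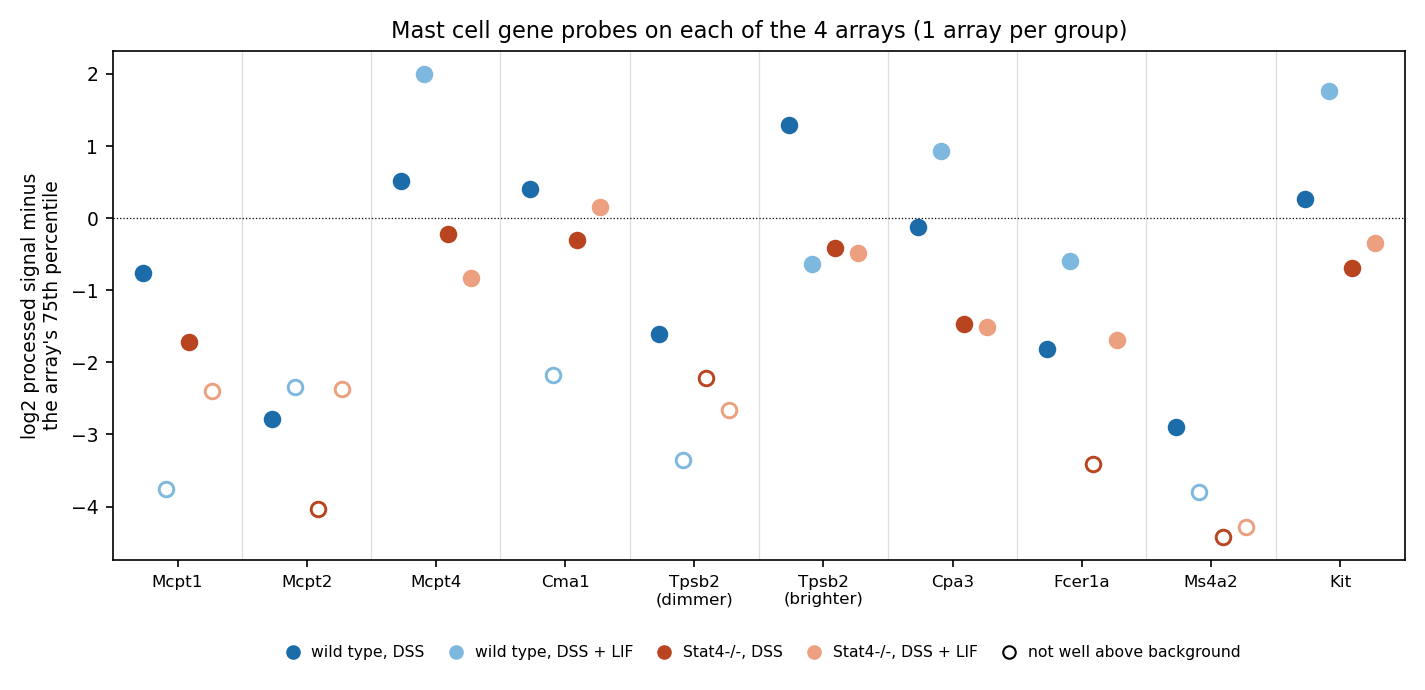
Log2 processed signal minus the array's 75th percentile (vertical axis) for each of the 10 probes (horizontal axis); each point is 1 array, coloured by group, and open points were not well above background. Filled points number 10 in wild type on DSS, and levels compare arrays within a probe only.

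Among the connective tissue proteases, Mcpt4, a chymase, had a level of 0.51 in wild type on DSS, 2.00 in wild type on DSS plus LIF, −0.22 in the labelled knockout on DSS and −0.83 in the labelled knockout on DSS plus LIF. Cpa3, which trims the ends of peptides, followed the same order with −0.12, 0.93, −1.47 and −1.51. In both genes the 2 wild type arrays lay above the 2 labelled knockout arrays, and wild type with LIF was highest.

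The brighter probe of Tpsb2, the main tryptase of these mice, read 1.29, −0.64, −0.41 and −0.48 in the same order of groups. Wild type on DSS alone stood out, and the other 3 arrays lay close together. The dimmer Tpsb2 probe was well above background there too and on no other array, with a level of −1.60. That is under the dimmest level that passed in wild type on DSS plus LIF (−1.49). Cma1, the chymase expressed together with Cpa3, read 0.40, −0.31 and 0.15 in wild type on DSS and in the labelled knockout without and with LIF. In wild type on DSS plus LIF it was not well above background, where its signal was 5.24 ± 1.80 against 162.0 ± 16.3 in wild type on DSS.

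Mcpt1, a mucosal protease, read −0.76 in wild type and −1.72 in the labelled knockout and was not well above background on either LIF array. Mcpt2 passed in wild type on DSS only, at −2.78, which is under the dimmest level that passed on the LIF arrays (−1.49 in wild type and −2.04 in the labelled knockout), so such a level could not be seen there.

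Kit had levels of 0.26 in wild type on DSS, 1.76 in wild type on DSS plus LIF, −0.69 in the labelled knockout on DSS and −0.35 in the labelled knockout on DSS plus LIF. Its order of genotypes was that of Mcpt4 and Cpa3. Fcer1a read −1.81, −0.59 and −1.69 in wild type on DSS, wild type on DSS plus LIF and the labelled knockout on DSS plus LIF, and was not well above background in the labelled knockout on DSS. Ms4a2 passed in wild type on DSS only, at −2.89, which is under the dimmest levels that passed on the other arrays. From bulk RNA, fewer mast cells and less RNA per mast cell cannot be told apart.

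The genotypes were first compared under DSS alone, on arrays read in the same scan. Every member measured on both arrays was lower in the labelled knockout. Tpsb2 was 3.24-fold lower (log2 difference −1.69, SE 0.22), and Cpa3 2.56-fold (−1.35, SE 0.28). SEs in this text come from the scanner software's error of each spot, cover the array alone, and say nothing about mice. Mcpt1 was 1.95-fold lower (−0.96, SE 0.31), Kit 1.92-fold (−0.94, SE 0.23), Mcpt4 1.67-fold (−0.74, SE 0.22) and Cma1 1.63-fold (−0.70, SE 0.22). Each of these differences was larger than its SE and than the median SD of 0.16 over replicate spots of probes with signals under 50. With 1 array per group there was nothing to replicate these differences, and p-values were left out.

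Below 0 were 6 of the 6 measured members, as were 45.5% of all 10500 measured genes. At least 2-fold lower were 2 of 6 members, against 6.81% of all genes, and 0 were at least 2-fold higher, against 13.2%. The members' median was −0.95 and that of all genes 0.08. Of all measured genes 0.924% had a lower difference than Tpsb2, 2.72% than Cpa3 and 13.8% than Cma1.

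The receptor chains Fcer1a and Ms4a2 were below background on the labelled knockout array. Fcer1a was at least 1.25-fold lower, a bound taken against the dimmest signal called well above background there. Such bounds were uneven over all genes, with 1033 lower and 145 higher. Mcpt2 and Ms4a2 passed in wild type, but their levels there were under that dimmest signal (−2.13), so no fold could be given. The dimmer Tpsb2 probe was at least 1.44-fold lower by the same bound.

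The sign of all 6 members held under each of the alternatives that measured them. With normexp background correction and an offset of 50, which compresses dim signals, the median became −0.47 and Tpsb2 alone (−1.16) was at least 2-fold lower, with Cpa3 at −0.43 and Mcpt1 at −0.06. For all genes in that setting the median was −0.01, and 7.9% were at least 2-fold lower. In the authors' deposited table the members' median was −1.04 and 4 of 6 were at least 2-fold lower. All genes there had a median of 0.03, and 8.36% were at least 2-fold lower.

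**Figure D2:**
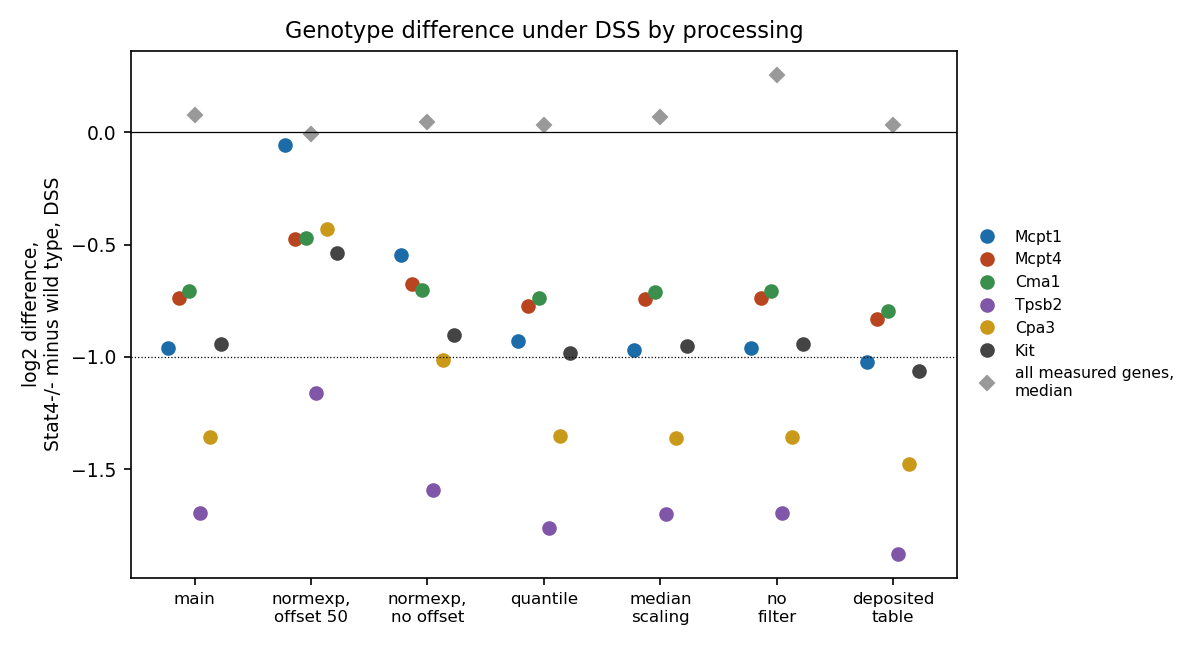
Log2 difference of labelled knockout minus wild type under DSS (vertical axis) for the 6 measured members under 7 ways of processing (horizontal axis); grey diamonds are the median of all measured genes and the dotted line marks 2-fold lower. All points of members lie below 0, from −1.88 for Tpsb2 in the deposited table to −0.06 for Mcpt1 with normexp and an offset of 50.

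Under DSS and LIF the genotypes were compared between arrays read in separate scans, and the wild type array was the one that stood apart. Mcpt4 was 7.13-fold lower in the labelled knockout (log2 difference −2.83, SE 0.25), Cpa3 5.43-fold (−2.44, SE 0.30), Kit 4.32-fold (−2.11, SE 0.23) and Fcer1a 2.15-fold (−1.11, SE 0.37). Tpsb2 differed by 0.16 (SE 0.29), which is within its SE. Cma1 went the other way and was at least 3.11-fold higher in the labelled knockout, a bound, since it was below background in wild type. Bounds over all genes were uneven here too, with 1587 higher and 855 lower.

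At least 2-fold lower were 4 of 5 measured members, with a median of −2.11, but 31.3% of all 8348 measured genes were too, and their median was −0.45. At least 2-fold higher were 0 of 5 members and 14.1% of all genes. With normexp and an offset of 50 Mcpt4 alone reached 2-fold, and the median was −0.52. Of all genes in that setting 14.4% were at least 2-fold lower, with a median of −0.17. With normexp and no offset the sign of Fcer1a turned, to 0.06. Mcpt1, Mcpt2 and Ms4a2 were below background on both arrays.

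LIF in wild type mice split the members. Kit was 2.83-fold higher with LIF (SE 0.21 on the log2 scale), Mcpt4 2.81-fold (log2 difference 1.49, SE 0.21), Fcer1a 2.34-fold (1.22, SE 0.29) and Cpa3 2.08-fold (1.05, SE 0.21). Tpsb2 was 3.80-fold lower (−1.93, SE 0.27), Cma1 at least 3.71-fold lower and Mcpt1 at least 1.66-fold lower. The values of Cma1 and Mcpt1 are bounds, which were uneven over all genes, with 1451 lower and 253 higher. Proteases known from the same connective tissue granules thus lay on opposite sides of 0 on this pair of arrays.

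At least 2-fold higher were 4 of 5 measured members, beside 34.5% of all 8963 genes, and 1 of 5 was at least 2-fold lower, beside 13.6%. The members' median was 1.22 and that of all genes 0.57. Relative to that median Kit stood 0.93 higher, Mcpt4 0.92, Fcer1a 0.65 and Cpa3 0.48, and Tpsb2 lay on the lower side of it. With normexp and an offset of 50, 0 of the 5 were at least 2-fold higher (Fcer1a 0.90, Kit 0.47, Mcpt4 0.46, Cpa3 0.34). The members' median was then 0.46, and Tpsb2 stayed at −1.09. Of all genes in that setting 8.49% passed 2-fold upward and 17.3% downward, and their median was 0.05. These arrays were read in separate scans, so scan and treatment cannot be told apart.

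LIF in the labelled knockout came with small differences. This pair of arrays was read in separate scans too, so scan and treatment cannot be told apart here either. Mcpt4 was 1.52-fold lower (log2 difference −0.61, SE 0.26), Cma1 1.37-fold higher (0.45, SE 0.23) and Kit 1.26-fold higher (0.34, SE 0.25). Tpsb2 (−0.07, SE 0.25) and Cpa3 (−0.03, SE 0.35) differed by less than their SEs. Fcer1a was at least 1.36-fold higher and Mcpt1 at least 1.25-fold lower. Of the 5 measured members 0 were at least 2-fold higher, beside 3.21% of all 9783 genes, and 0 lower, beside 3.08%. The median was −0.03 against −0.01 for all genes. It turned to 0.15 with normexp and an offset of 50, to 0.31 with normexp and no offset, and to 0.15 with no background filter.

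**Figure D3:**
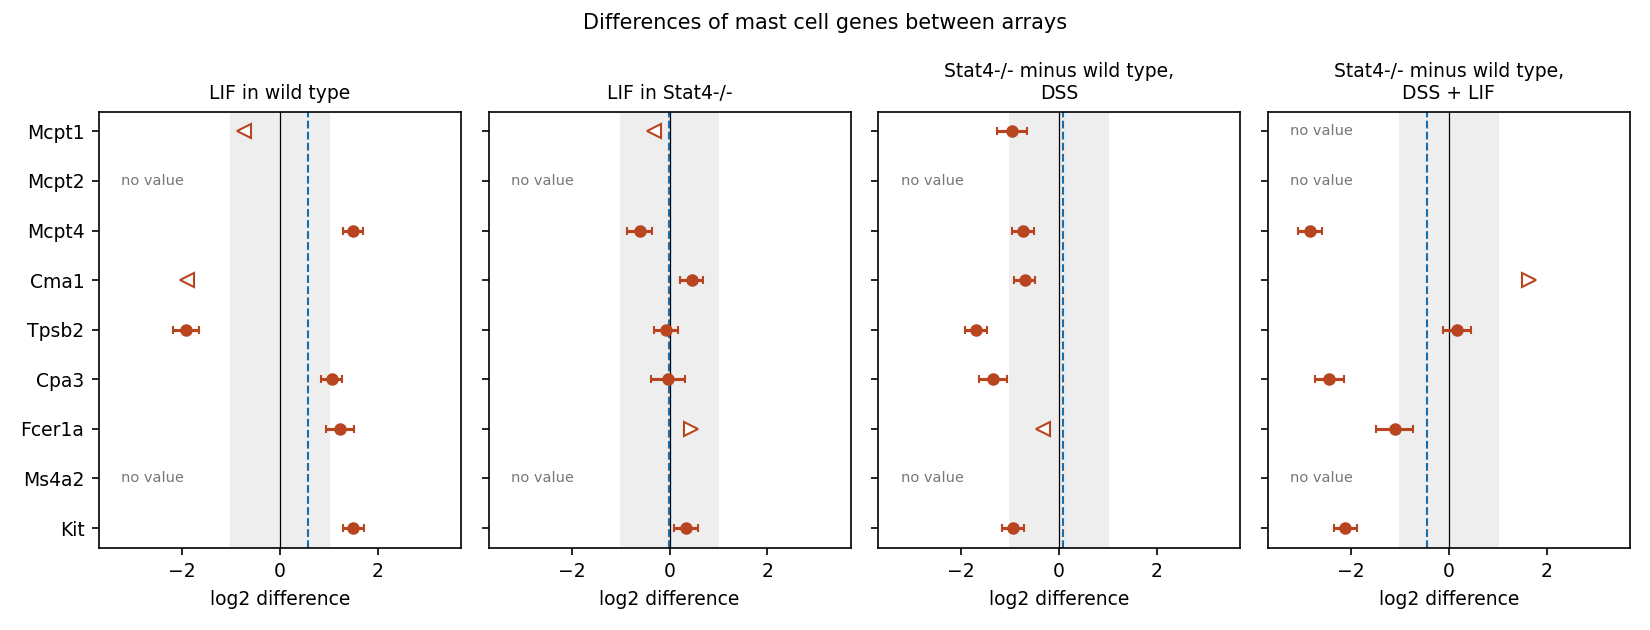
Log2 differences (horizontal axis) of the 9 genes with a probe in the 4 comparisons; points are measured genes with bars of 1 SE from the scanner software's spot error, open triangles are bounds pointing away from 0, the grey band is within 2-fold and the dashed line is the median of all measured genes. Under DSS all 6 points lie on the lower side, and LIF in wild type has points on both sides, with Tpsb2 at −1.93 and Mcpt4 at 1.49.

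Whether the LIF difference depended on genotype could be asked for the 4 members measured on all 4 arrays. The LIF difference in the labelled knockout minus that in wild type was −2.10 for Mcpt4, −1.17 for Kit, −1.09 for Cpa3 and 1.86 for Tpsb2. A value of −1 or lower was found in 3 of these 4 members and in 33.4% of all 8045 genes measured on all 4 arrays, and a value of 1 or higher in 1 of 4 and in 16.7%. The median was −1.13, against −0.53 for all genes. With normexp and an offset of 50 it was −0.18 for both, and with normexp and no offset Cpa3 turned to 0.07. The difference was not tested, because every group has 1 array.

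Related genes were read first in the comparison of genotypes under DSS, where the shares of all measured genes past 2-fold were 13.2% upward and 6.81% downward. The granule and mediator synthesis list, which covers histamine, leukotriene and prostaglandin enzymes and further granule proteases, had 2 of 12 measured genes at least 2-fold higher in the labelled knockout and 1 at least 2-fold lower, with a median of 0.37. These shares are close to those of all genes. Hdc, the histamine-forming enzyme, read −2.27 in wild type and 0.58 in the labelled knockout, a log2 difference of 2.85 in the direction opposite to the proteases. Hdc is also made by other myeloid cells. Alox5ap, the helper protein of leukotriene synthesis, was higher by 2.28, and Mcpt8, a basophil protease, differed by −2.18. Mrgprb2, the receptor for peptide triggers of mast cells, was not well above background on any array, and Slc18a2, which loads histamine into granules, passed in wild type on DSS alone, at −2.31. That is under the dimmest levels that passed on the other arrays (−1.49, −2.13 and −2.04), so such a level could not be seen there.

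In the signalling list of the IgE receptor and KIT, 3 of 14 measured genes were past 2-fold, all higher, and the median was 0.25. The kinase genes Syk (log2 difference 1.58) and Btk (1.17) and the adaptor gene Lcp2 (1.63) were the 3. Fcer1g, the gamma chain, was higher by 0.63. These genes are used by many leukocytes. In the same comparison the neutrophil genes S100a8, S100a9, Mmp8 and Camp differed by 2.80, 2.67, 4.16 and 4.93, but Csf3r by −0.03. Whether neutrophils had a part in the differences of the signalling genes was not tested.

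Growth factors and their receptors had 2 of 8 measured genes past 2-fold, both lower in the labelled knockout, and a median of −0.23. Il4, a mast cell growth cofactor, had a difference of −2.10, and Il1rl1, the interleukin-33 receptor, one of −1.03. Il9r, the receptor for the mast cell growth factor interleukin-9, was below background in the labelled knockout, with a bound of −1.35. Kitl, the KIT ligand, had a difference of −0.23. Il9 passed in wild type on DSS alone, at −2.28, and Il3, Il13, Tslp and Tgfb1 on no array. The level of Il9 is also under the dimmest levels that passed on the other arrays.

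Lineage transcription factors had 1 of 9 past 2-fold, Stat5b (1.32, higher), a signalling factor downstream of KIT and interleukin-3, with a median of 0.53 over the list. Mitf, known to drive Kit and protease genes, had a difference of −0.53, and Gata1 one of 0.53. Gata2, the factor most tied to mast cell identity, was not well above background on any array. Homing and adhesion genes had 2 of 4 at least 2-fold higher, Vcam1 (2.65) and Cd34 (1.01), and a median of 0.68. Itga4 and Itgb7, the chains of the integrin by which mast cell progenitors enter the gut, had differences of −0.73 and 0.34.

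**Figure D4:**
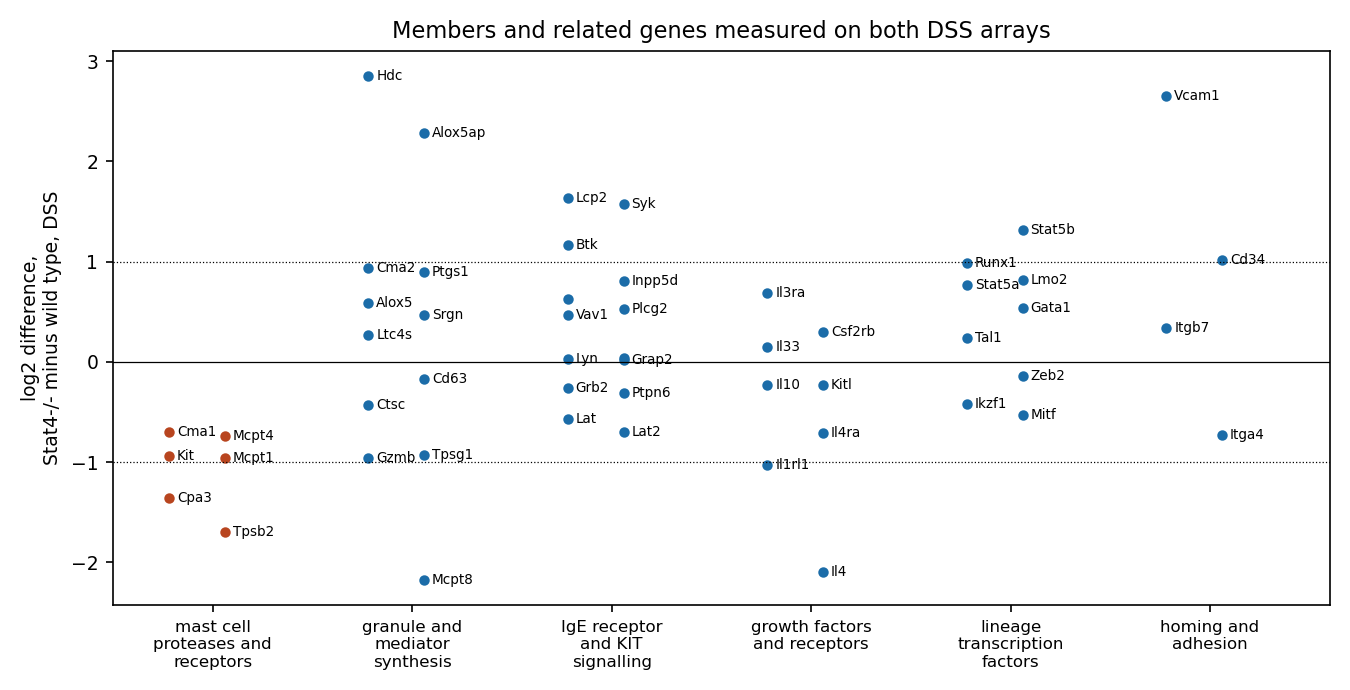
Log2 difference of labelled knockout minus wild type under DSS (vertical axis) for the 6 members and for genes of the 5 related lists measured on both arrays (horizontal axis); each point is a gene, overlapping names are left out and dotted lines mark 2-fold. The members lie between −1.69 and −0.70, and the granule and mediator list spans −2.18 (Mcpt8) to 2.85 (Hdc).

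In the other comparisons the related lists lay as follows. For LIF in wild type 6 of 10 signalling genes were past 2-fold upward and 1 downward, and their median was 1.13 beside 0.57 for all genes. The 6 were Lcp2 (1.83), Fcer1g (1.60), Plcg2 (1.21), Grb2 (1.18), Vav1 (1.13) and Lyn (1.12), and Lat was the lower gene (−1.23). Lat2 and Ptpn6, below background with LIF, had bounds of −1.94 and −1.41. The shares of all measured genes past 2-fold were 34.5% upward and 13.6% downward. Among 9 granule genes Ltc4s (1.07), a leukotriene synthase, and Tpsg1 (−1.22), a membrane tryptase, passed 2-fold. Kitl (−1.57) and Il4ra (−1.55) were at least 2-fold lower, and Mcpt8, below background with LIF, had a bound of −2.79. Mcpt9, a further mast cell protease gene, had a bound of 3.76. Of 6 transcription factors Tal1 (1.38) and Stat5b passed 2-fold. Stat5b read 10.20, 2.26, 11.52 and 10.72 in the group order used above, so that 1 array stood far from the other 3. For LIF in the labelled knockout 0 of 12 signalling genes passed 2-fold, near the shares of all genes (3.21% upward and 3.08% downward). Cma2 (−1.31), Tal1 (1.25) and Vcam1 (−1.91) were the measured genes of the other lists that passed, with a bound of −1.25 for Gata1. Under DSS and LIF, labelled knockout minus wild type, Il4 had a difference of −3.38, Il1rl1 one of −1.43 and Kitl one of 1.61. Past 2-fold were also Vav1 (−1.34), Fcer1g (−1.10), Lyn (−1.09), Tpsg1 (1.18), Alox5ap (1.01), Gzmb (−1.01), Stat5b (8.46), Lmo2 (1.03), Ikzf1 (−1.70), Zeb2 (−1.24), Itgb7 (−1.39) and Itga4 (−1.14). The counts there were 2 higher and 1 lower of 9 granule genes, 0 and 3 of 9 signalling genes, 1 and 2 of 6 growth factor genes, 2 and 2 of 6 transcription factors, and 0 and 2 of 4 homing genes, beside 14.1% and 31.3% of all genes. Not in these counts are bounds of 2.29 for Hdc, 1.38 for Ptpn6, −2.01 for Mcpt9 and −1.22 for Il10.

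Markers of other cell types were read beside the members in the comparison of genotypes under DSS. Of the basophil markers Mcpt8, Il3ra, Prss34, Cd200r3, Fcer1a and Ms4a2, 2 of 6 were measured, with differences of −2.18 (Mcpt8) and 0.69 (Il3ra), and Prss34 and Cd200r3 were not well above background on any array. Of the interstitial cell of Cajal markers, Ano1 had a difference of −1.81, Etv1 one of −0.32 and Thbs4 one of 0.38, beside −0.94 for Kit. Of the progenitor markers Flt3 (0.52), Cd34 (1.01), Myb (0.14) and Meis1 (−0.25) were measured beside Kit. Of 6 eosinophil markers 2 were measured, Ear2 (−0.94) and Ccr3 (−0.80), and Epx and Prg2 were not well above background on any array. Epithelial markers had a median of −0.67 over 6, T cell markers −0.58 over 5, stroma and smooth muscle 2.28 over 4, and neutrophil markers 2.80 over 5. The median of all genes was 0.08. For LIF in wild type the median of all genes was 0.57. Beside it the medians were 1.07 over 3 eosinophil markers and 1.03 over 3 markers of innate lymphoid cells. Areg, of the innate lymphoid list, went the other way with a bound of −1.93. The medians were 0.94 over 4 progenitor markers and 0.85 over 4 Cajal cell markers (Thbs4 2.58), both of which include Kit. Over 6 epithelial markers the median was −0.47 (Epcam −2.64). Between the genotypes under DSS and LIF, Ano1 (−1.55) and Thbs4 (−1.47) were lower beside Kit. The medians there were −0.63 over 3 eosinophil, −1.10 over 3 progenitor, 0.58 over 6 epithelial and 2.67 over 3 neutrophil markers, beside −0.45 for all genes. For LIF in the labelled knockout they were 0.45 over 3 Cajal cell, −0.02 over 4 progenitor, 0.67 over 6 epithelial and 0.05 over 6 neutrophil markers, beside −0.01 for all genes. The part of these cells in the members' differences was not tested.

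The genes nearest to the average of the 4 members measured on all 4 arrays were sought among 8041 named genes measured on all 4 arrays. The likeness was the Euclidean distance over the 4 arrays between a gene's mean-centred levels and the average centred levels of Mcpt4, Tpsb2, Cpa3 and Kit. That average was 0.48 in wild type on DSS, 1.01 in wild type on DSS plus LIF, −0.70 in the labelled knockout on DSS and −0.79 in the labelled knockout on DSS plus LIF. The nearest genes were Uchl3 (distance 0.073), Ndufab1 (0.083), Cox5a (0.130), Commd2 (0.131) and Atp5j (0.142). The 4 members did not share 1 pattern and lay farther from their average, Cpa3 at 0.55, Kit at 0.75, Mcpt4 at 0.82 and Tpsb2 at 1.88.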

How the data were processed

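Gene expression was measured on 4 one-colour (Cy3) Agilent arrays, 1 per group. The spot intensity values were made by the authors with Agilent Feature Extraction, version 11.0.1.1 per the file headers (the submitters' processing notes name 9.1), and the processed signal used is background-subtracted. The authors also deposited normalized log2 values of the same arrays, whose normalization and floor are not given in the sources used here. Their medians were 3.31, 2.54, 3.31 and 3.31 for wild type without and with LIF and knockout without and with LIF, and they correlated at 0.971 to 0.992 with the log2 scanner values, so the scale is log2 and the direction the same.

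Outlier spots were left out, log2 signals of a probe's spots averaged, and the array's 75th percentile subtracted. A probe passed as well above background with 50% or more of its spots so marked. Of a gene's probes the brightest over the 4 arrays was used, and a gene was measured when that probe passed on both arrays. A gene whose probes all failed on 1 array got a bound, the bright level against the higher of the dim level and the dimmest level that passed. Names came from RefSeq accessions (GRCm38.p6 table, 69.1% of 39429 probes). Differences are described by size (2-fold) without p-values. Members, related lists, markers and motifs were chosen with earlier results of these data known. Named were all members and, of the related lists, genes past 2-fold, also by a bound, with other values of the lists given for their known roles after they were seen. The number of arrays limits the precision. R 4.3.3, limma 3.58.1 (normexp, quantile), Python 3.11.15, numpy 2.4.6, pandas 2.3.3 and matplotlib 3.10.9 were used, and the comparison code was tested on simulated data. Alternatives were normexp with and without an offset, quantile and median scaling, no background filter, probes above background on all 4 arrays, means over probes, outlier spots kept, bounded genes entered, and the deposited table.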

Additional observations from a re-analysis of the deposited data

Results flagged for a closer look

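In 5 cases a difference between arrays had opposite signs in the 2 groups it was taken in. None of these cases was tested, since each group has 1 array. How often all genes changed sign in this way was not counted, so the 5 cases do not set the members apart. Of all measured genes, 31.6% had a LIF difference below 0 in wild type and 50.9% in the labelled knockout. The genotype difference was below 0 in 45.5% of measured genes without LIF and in 65.2% with it. Each case draws on every array by construction, so the cases by themselves do not point to any single array. The LIF difference of Mcpt4 was 1.49 in wild type and −0.61 in the labelled knockout, a change of −2.10. That of Cpa3 was 1.05 and −0.03, a change of −1.09, with the second value under its SE of 0.35. That of Cma1 was −1.89 by its bound in wild type and 0.45 in the labelled knockout, a change of at least 2.34. The genotype difference of Tpsb2 was −1.69 without LIF and 0.16 with it, a change of 1.86, with the second value under its SE of 0.29. That of Cma1 was −0.70 without LIF and 1.64 by its bound with LIF, a change of at least 2.34.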

How the results depend on the processing

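The median log2 difference of the measured members kept its sign in every alternative for 3 comparisons: both comparisons of genotypes and LIF in wild type. Its distance from the median of all genes was less stable. With no background filter it was 0.44 for LIF in wild type, beside 0.71 for all genes. Under DSS and LIF it was −0.48 beside −0.43 without that filter, and for the genotypes under DSS −1.26 beside 0.26. A median was taken as moved when it shifted by more than the median SD over replicate spots, which was between 0.099 and 0.107, or 0.151 for the difference of the LIF differences. For the genotypes under DSS (−0.95) it was −0.47 with normexp and an offset of 50, −0.80 with normexp and no offset, −1.26 over 9 genes with no background filter, and −1.15 over the 4 genes above background on all 4 arrays. Under DSS and LIF (−2.11) the corresponding medians were −0.52, −0.94, −0.48 and −2.28, with −1.97 under median scaling and −1.61 with bounded genes entered. For LIF in wild type (1.22) they were 0.46 and 1.01 with normexp with and without the offset, 1.08 under median scaling, 0.44 with no background filter, 1.37 in the deposited table and 1.05 with bounded genes. For LIF in the labelled knockout (−0.03) the sign turned to 0.15, 0.31 and 0.15 with both forms of normexp and with no background filter. The difference of the LIF differences (−1.13) was −0.98 under median scaling, within that limit, and −0.18 and −0.24 with normexp with and without the offset and turned to 1.06 over 9 genes with no background filter; with bounded genes it was not run, as bounds give no defined value there. Among single members at or past 2-fold, 2 signs turned, both with normexp and no offset: Fcer1a under DSS and LIF (0.056) and Cpa3 in the difference of the LIF differences (0.072). The cause was not tested. Keeping outlier spots and averaging measured probes changed no member's value. No paired analysis was possible because each group has 1 array, and no array could be left out. Signal over background limits Mcpt1, Mcpt2, Ms4a2, Fcer1a and Cma1, with passes on 2, 1, 1, 3 and 3 of the 4 arrays.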

Other observations

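Levels of a few other genes are given as values, picked after they were seen and with no test. Ear2, an eosinophil ribonuclease gene, read 2.38 and 3.60 in wild type without and with LIF and 1.44 and 1.25 in the labelled knockout. Il1rl1, the interleukin-33 receptor of mast cells and innate lymphoid cells, read 2.60, 2.61, 1.57 and 1.18 in the same order, and Il4 read 0.90, 1.82, −1.20 and −1.56. Ccr3, the eotaxin receptor, read 0.19, 0.31, −0.61 and −0.32. Il33, the ligand of the receptor encoded by Il1rl1, had another order, with −1.32 in wild type and −1.17 and −0.66 in the labelled knockout, and was not well above background in wild type with LIF.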
